A study of Homo sapiens with 59 samples.

Results

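The MYC network is a family of helix-loop-helix leucine-zipper transcription factors that pair with MAX and bind the E-box, the DNA sequence CACGTG. MYC and MYCN bound with MAX recruit activating cofactors to genes of ribosome biogenesis, nucleotide synthesis and metabolism, whereas MXD1, MXD3, MXD4, MXI1 and MNT bound with MAX recruit SIN3 corepressors to the same kind of site. MLX is a MAX-like partner of MLXIP (MondoA), which responds to glucose-derived metabolites, and it also pairs with some of the repressors. In neural progenitors MYCN is known for its role in proliferation, and GSK3, the kinase inhibited by CHIR99021, is known to phosphorylate MYC proteins and so to mark them for degradation.

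The 10 genes MYC, MYCN, MAX, MXD1, MXD3, MXD4, MXI1, MNT, MLX and MLXIP were taken by symbol from the 19084 genes of the table, and all 10 passed the filter on low values, which asked for 3 or more libraries with a TPM of 1 or higher. They were followed by RNA-seq in 59 libraries of neural stem cells that derive from the human embryonic stem cell line WA09, also named H9. Every group shared a first step with FGF8b and a last step of 4 days in retinoic acid, and the 20 groups differ in the labelled time in CHIR99021 between them, from 2 to 72 h, in steps of 2 h until 24 h and of 6 h from there on. RNA was taken after the retinoic acid step. A group holds 3 libraries, named A1, A2 and B1, and the 48 h group holds A1 and A2. Whether the 3 were grown separately is not labelled, so the spread between libraries of a group may be technical. Where time points were contrasted without a curve of hours, a p-value here covers mainly that spread. Where a smooth curve of hours was fitted, it also takes in departures of the time points from the curve. Time in culture lengthened together with exposure, and cells without CHIR99021 were not analysed here.

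Values are TPM, a transcript abundance that adjusts for gene length and is scaled to the same total in every library. TPM keep no sequencing depth, which is therefore unknown. The number of genes reaching 1 TPM ranged from 9348 to 13085 across libraries (median 12594), and 3 libraries fell below 10000, namely B1 of 4 h, B1 of 42 h and A2 of 72 h. Of the 9 libraries of 6, 30 and 54 h none was below that limit, and 2 of the 26 libraries of the other multiples of 6 h were. Neural progenitor markers summed to between 2128 and 4001 TPM in the libraries at multiples of 6 h, most of it from CDH2 and VIM. In these bulk samples, fewer cells of a type and less RNA per cell cannot be told apart.

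Sequences near the start sites of the members show where the network's own binding letters occur. RefSeq windows of the 250 bases before the start site (GRCh38.p14, a later build than the hg19 of the deposited values) were at hand for 9 of the 10 members. CACGTG, which reads the same on both strands, was in 6.34% of the 35116 windows of all genes and in those of MXD4, MNT and MLX, each shown here as 30 bases with the E-box in capitals because these 3 members carry the letters that the network's proteins bind.
MXD4, chr4:2262330-2262359, minus strand: gggccgggccacCACGTGctgttgctaagc
MNT, chr17:2401236-2401265, minus strand: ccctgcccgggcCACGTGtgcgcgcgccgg
MLX, chr17:42567038-42567067, plus strand: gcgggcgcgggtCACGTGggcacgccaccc
The E-box began 238 bases before the RefSeq start in MXD4, 193 in MNT and 50 in MLX. Annotated exons of the same gene covered 185 of the 250 bases in MXD4, 58 in MNT and 32 in MLX, so the distances hold for the RefSeq start only. The 30 bases shown lay outside these exons. These matches are a description of the letters in these windows.

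MXI1 has 3 annotated starts on chromosome 10. A window is shown because MXI1 had the largest difference among the members and moved with genes of the hypoxia response. The middle one is the only one of the 3 with both of the sequences marked below, so it is a selected example. Whether these letters have a part in the level of MXI1 was not tested. Capitals mark GCGTG and ACGTG, the latter on the opposite strand where it reads CACGT. Both are core letters of the sites that hypoxia-inducible factors are known to bind. One or the other was in 43.2% of all windows of this length, searched on both strands and counting overlaps with CACGTG.
MXI1, chr10:110209981-110210230, plus strand: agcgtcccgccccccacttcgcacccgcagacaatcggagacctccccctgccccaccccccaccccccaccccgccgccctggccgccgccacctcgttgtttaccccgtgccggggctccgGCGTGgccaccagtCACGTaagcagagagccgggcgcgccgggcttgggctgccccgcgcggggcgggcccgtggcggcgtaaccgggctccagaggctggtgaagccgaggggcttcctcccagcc
The first of the 3 windows held neither and the last held GCGTG. One or both were also in windows of MAX, MXD3, MXD4, MNT, MLX and MLXIP, so these letters are not particular to MXI1. The deposited values are per gene, so they do not tell which start was used.

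Taken as a set, 6, 30 and 54 h of exposure, which lie 24 h apart, had higher MYCN and MAX than the other multiples of 6 h. The repressor MXI1 was lower. For MYCN the mean at 6 h lay within the range of the other means. The comparison set the 9 libraries of these 3 times against the 26 libraries of the other 9 multiples of 6 h, with a smooth curve of hours to take up slow change. Of the 10 members, 4 were higher, namely MYCN, MAX, MNT and MLXIP, and 1 was lower, MXI1, while 5 did not pass an adjusted p of 0.05. Among all 15305 genes tested, 13.8% passed, 8.6% higher and 5.2% lower. The median log2 difference was 0.31 over the members and 0.04 over all genes. Of the called genes 62.3% were higher, a share that was 48% after quantile normalization and 47.6% after median-ratio scaling, and each called member kept its direction under both. The contrast rests on 3 times against 9, and with the mean of each time point as the unit 539 genes passed. MXI1 (-1.74, adjusted p = 0.00789) and MAX (1.22, 0.0471) kept their calls there, whereas MYCN (adjusted p = 0.0793), MLXIP (0.127) and MNT (0.201) lost theirs. The labels give no clock times for medium changes, and exposure length and culture age cannot be told apart.

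MXI1, a repressor partner of MAX, had the lowest p of the members. Its TPM in the A1, A2 and B1 libraries were 17.88, 11.36 and 10.44 at 6 h, 16.7, 16.27 and 7.92 at 30 h, and 15.04, 14.7 and 10.13 at 54 h. At the times between and around these it was 41.37, 29.63 and 37.49 TPM at 24 h, 34.54, 47.35 and 40.25 TPM at 36 h, 59.13 and 113.58 TPM in the 48 h libraries, and 58.08, 86.36 and 72.98 TPM at 60 h. The highest of the 9 libraries, at 17.88 TPM, was below the lowest of the other 26, at 24.11 TPM, so the ranges did not overlap. Ranges failed to overlap for 1.04% of all genes tested, and among the members for MXI1 and MAX.

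Means of MXI1 were 13.4 ± 3.49 TPM (SD, n = 9) at 6, 30 and 54 h and 56.9 ± 29.01 TPM (SD, n = 26) at the other multiples of 6 h. The fitted log2 difference was -1.70 (SE 0.19, limma adjusted p = 7.41e-08). Taken within each label without the curve, it was -1.58 in A1, -1.67 in A2 and -2.44 in B1. It stayed past the threshold in all 17 alternatives of this contrast, with log2 differences from -2.06 to -1.42.

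MXI1 was also low at 2 further times that are not multiples of 6 h. At 2 h its mean was 37.2 ± 2.62 TPM, at 4 h it was 12.1 ± 2.07 TPM, and at 8 h it was 12.7 ± 15.1 TPM, where the B1 library was listed at 0 and A2 was at 29.36 TPM. At 10 h it stood at 21.5 ± 7.04 TPM and at 12 h 33.0 ± 12.6 TPM (SD, n = 3 each). The low level of 6 h was therefore shared by its neighbours at 4 and 8 h, which lie 2 h away. The nearest sampled times around 30 and 54 h lie 6 h away and were higher, as was 12 h beside 6 h. Each time is a length of exposure, with RNA taken after the retinoic acid step. How wide the span of exposures with a low level is around 30 and 54 h was not sampled.

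MYCN, the MYC gene best known from neural progenitors, moved the other way. It was at 53.58, 52.33 and 76.18 TPM at 6 h, 70.17, 119.81 and 89.66 TPM at 30 h, and 121.77, 119.82 and 108.25 TPM at 54 h. At 24 h it was 17.79, 26.09 and 41.43 TPM, and at 36 h 46.31, 36.26 and 50.16 TPM. It was 28.83 and 46.19 TPM at 48 h, 21.45, 64.75 and 74.47 TPM at 60 h, and 57.24, 76.62 and 50.91 TPM at 72 h. The 6 h mean of 60.7 TPM thus lay within the range of means at the other multiples of 6 h, which reached 61.6 TPM at 72 h. The means of 30 and 54 h lay above that range. All 9 libraries of 6, 30 and 54 h were above the median of the other 26, and 4 of those 26 were at or above the lowest of the 9, so the ranges overlapped. The means were 90.2 ± 28.4 TPM (SD, n = 9) and 38.3 ± 17.7 TPM (SD, n = 26), with a log2 difference of 1.64 (SE 0.42, limma adjusted p = 0.0059).

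The call on MYCN was lost in 5 of 17 alternatives, on leaving out the A1 libraries (adjusted p = 0.105), A2 (0.0836), 30 h (0.208) or 54 h (0.123), besides the time-point means. Its log2 difference stayed between 1.35 and 1.96 in all of them. MYCN was listed at 0 in the 42 h B1 library, and without the 3 libraries of under 10000 genes its difference was 1.35 with an adjusted p of 8.55e-06. The highest MYCN mean of the course was at 4 h, with 202.36, 170.53 and 76.84 TPM, and at 8 h it was 36.37, 5 and 17.51 TPM. The RefSeq window of MYCN overlaps the antisense gene MYCNOS, which is not among the symbols of the table, and whether strand entered the counting was not given in the sources used here, so reads of the antisense gene cannot be told apart from those of MYCN.

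MAX, the shared partner, was at 82.24, 67.56 and 63.42 TPM at 6 h, 92.3, 65.21 and 65.71 TPM at 30 h, and 82.72, 77.49 and 65.16 TPM at 54 h. Among the other multiples of 6 h it reached at most 49.74 TPM, in the 36 h A1 library, and was listed at 0 in the 72 h A2 library, one of those with under 10000 genes. Every one of the 9 libraries was thus above every one of the 26. The means were 73.5 ± 10.4 TPM (SD, n = 9) and 30.6 ± 11.2 TPM (SD, n = 26), and the log2 difference was 1.16 (SE 0.36, limma adjusted p = 0.0275).

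Although its ranges did not overlap, MAX passed in 11 of 17 alternatives, with adjusted p of 0.263 without A1, 0.133 without B1, 0.0555 without 6 h, 0.441 without 30 h, 0.176 without 54 h and 0.0648 with a pseudocount of 0.5. Without the 3 libraries of under 10000 genes the difference was 1.26 with an adjusted p of 1.51e-06. MAX was also high at 8 h, with 62.82, 139.49 and 64.32 TPM, and at 10 h it was 39.6 ± 2.66 TPM. At 4 h its mean was 72.9 TPM, from 48.95, 44.49 and 125.11 TPM, the last in B1, one of those 3 libraries. Over the 20 time-point means MAX and MXI1 had a Pearson r of -0.85 on the log2(TPM + 1) scale, the most negative among the 45 pairs of members. The points share libraries, so this is a description.

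**Figure D1:**
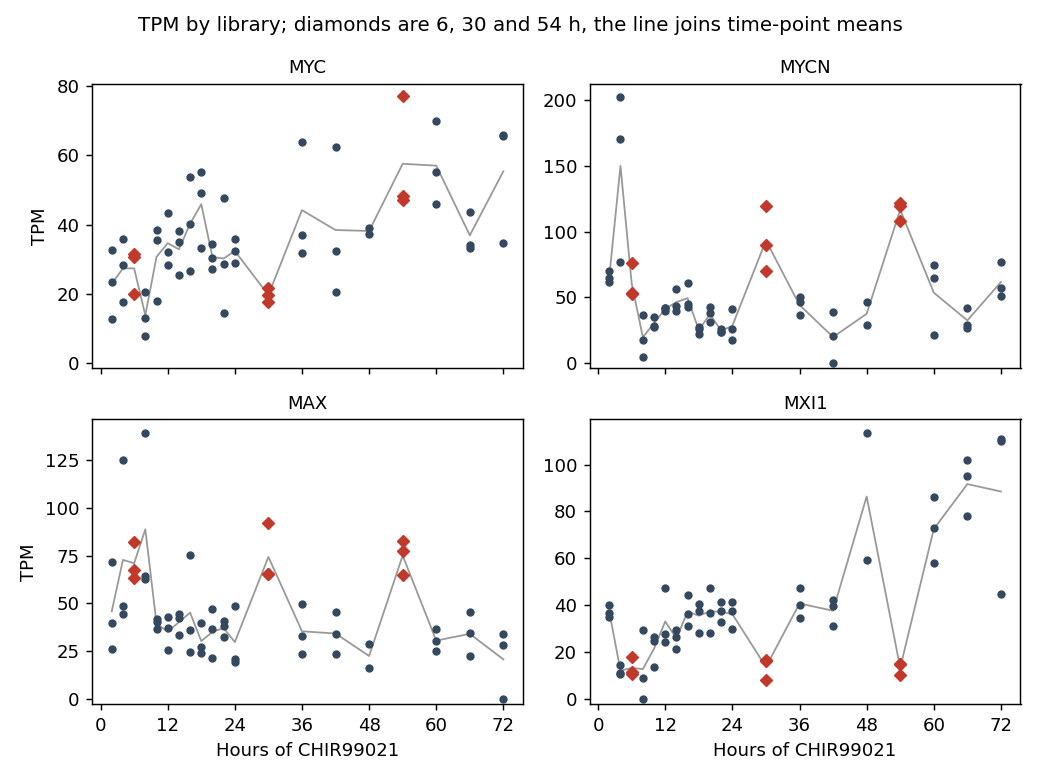
TPM of MYC, MYCN, MAX and MXI1 in each library (points) against hours of CHIR99021, with a line through time-point means and diamonds for 6, 30 and 54 h. The MXI1 diamonds all lie at or below 17.88 TPM and the MAX diamonds at or above 63.42 TPM, while the MYC diamonds are low at 30 h and high at 54 h.

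MYC itself, the most widely expressed gene of the family, had another pattern than MYCN. It was at 30.55, 31.61 and 19.92 TPM at 6 h, 21.67, 17.76 and 19.53 TPM at 30 h, and 77.22, 47.08 and 48.33 TPM at 54 h. The 30 h libraries were all below those of 24 h, at 35.83, 32.44 and 28.81 TPM, and of 36 h, at 31.71, 36.88 and 63.91 TPM. At 54 h the values overlapped those of 60 h, at 55.07, 46.01 and 69.95 TPM, and lay above those of 48 h, at 38.99 and 37.32 TPM.

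The log2 difference of MYC over the 3 times was -0.37 (SE 0.20, limma adjusted p = 0.244), with means of 34.9 ± 19.6 TPM (SD, n = 9) and 42.7 ± 13.8 TPM (SD, n = 26). Without 54 h it was -0.75 and passed (adjusted p = 0.0375), and without 30 h it turned to 0.18 (0.849). The local change at 54 h minus that at 30 h was 1.15 (SE 0.48), a comparison added after the values were seen; its limma p was 0.021 and its adjusted p 0.786, where 0.0392% of genes passed.

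Of the other repressors, MNT rose and the MXD genes did not pass. MNT, a broadly expressed repressor that pairs with MAX and MLX, was at 14.6 ± 3.28 TPM (SD, n = 9) against 9.90 ± 3.03 TPM (SD, n = 26), a log2 difference of 0.61 (SE 0.19, limma adjusted p = 0.0293). All 9 libraries were above the median of the others, but 13 of the 26 others were at or above the lowest of the 9, at 9.42 TPM. The highest MNT mean of the course was at 4 h, with 16.6, 13.06 and 48.57 TPM, the last in B1, a library of under 10000 genes. MNT passed in 9 of 17 alternatives and was lost when any label or any of the 3 times was left out, with adjusted p up to 0.277, with median-ratio scaling (0.0615) and with time-point means.

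MXD4, known from differentiating cells, had the smallest difference of the 10, with 37.9 ± 10.2 TPM (SD, n = 9) against 41.0 ± 15.9 TPM (SD, n = 26) and a log2 difference of 0.01 (SE 0.20, limma adjusted p = 0.986). MXD3, a repressor known from cycling progenitors, was at 15.6 ± 6.44 TPM against 28.5 ± 15.5 TPM. Its difference was -0.57 (SE 0.55, limma adjusted p = 0.574), and without the 3 libraries of under 10000 genes, of which 42 h B1 and 72 h A2 list it at 0, it was -0.73 and passed (adjusted p = 0.0238). All 9 libraries were below the median of the other 26. MXD1 was the lowest member, at 1.85 ± 1.28 TPM against 3.94 ± 2.72 TPM, with a difference of -0.41 (SE 0.32, limma adjusted p = 0.461). It was highest at 72 h, with 6.99, 10.46 and 10.3 TPM, and lowest at 60 h, with 0.45, 0.12 and 0.2 TPM.

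On the MLX arm, MLXIP rose and MLX did not pass. MLXIP was at 15.3, 12.46 and 15.67 TPM at 6 h, 43.16, 26.01 and 40.14 TPM at 30 h, and 38.67, 38.29 and 55.39 TPM at 54 h. At 12 h it was 13.54, 13.29 and 13.06 TPM, so at 6 h it stood at the level of its neighbour, while 30 h lay above 24 and 36 h, where it reached at most 24 TPM. Over the 3 times the log2 difference was 0.62 (SE 0.15, limma adjusted p = 0.0046). Without the curve it was 0.33 with an adjusted p of 0.341, and the call was also lost without A1 (0.15), B1 (0.0778), 30 h (0.113) or 54 h (0.0781) and with time-point means. MLX was at 18.3 ± 6.41 TPM (SD, n = 9) against 13.02 ± 5.23 TPM (SD, n = 26), a difference of 0.70 (SE 0.36, limma adjusted p = 0.216).

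**Figure D2:**
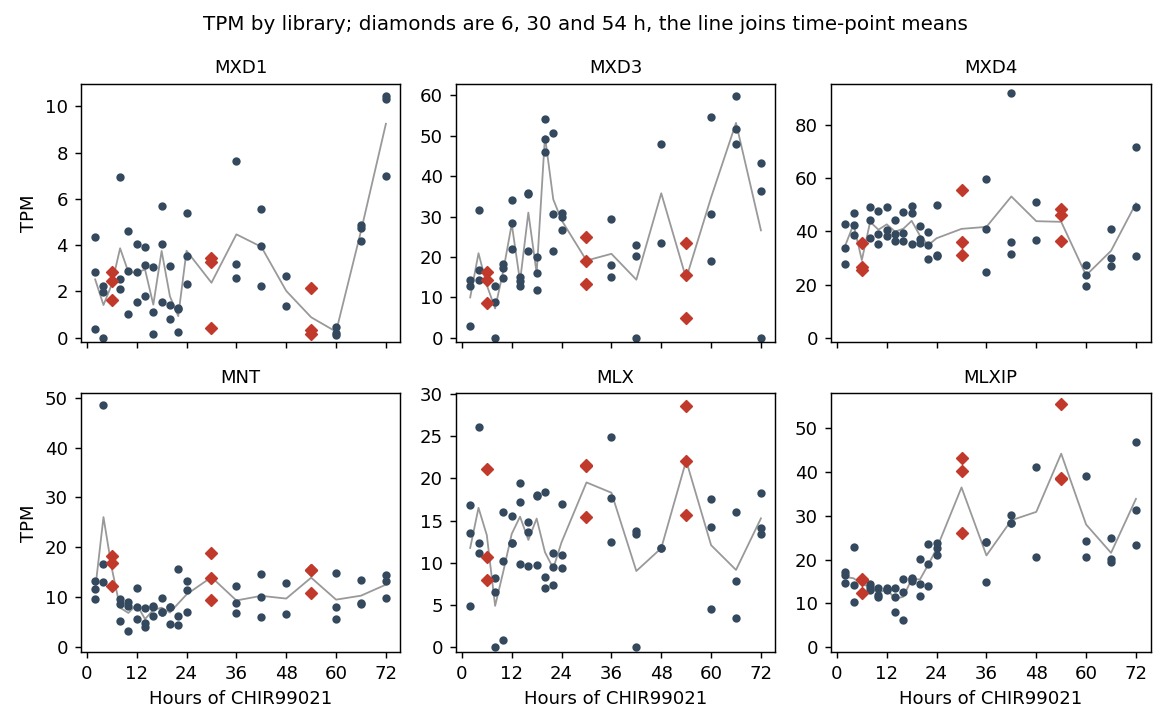
TPM of MXD1, MXD3, MXD4, MNT, MLX and MLXIP in each library (points) against hours of CHIR99021, with a line through time-point means and diamonds for 6, 30 and 54 h. MXD4 has means of 37.9 and 41.0 TPM in the 2 sets, with single libraries from 19.51 to 92.12 TPM at the other multiples of 6 h, and MLXIP at 30 and 54 h stands above its level at 6 h.

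Each time was also compared with its nearest multiples of 6 h. At 6 h against 12 h, 1.65% of all genes passed, 0.699% higher and 0.954% lower. By limma none of the 10 members did, with 1 at an unadjusted p under 0.05, and MXI1 had a log2 difference of -1.23 with an adjusted p of 0.394. At 30 h against the mean of 24 and 36 h, 4.5% of genes passed, 2.55% higher and 1.95% lower. By limma no member did, with 5 at an unadjusted p under 0.05, the nearest being MXI1 at -1.48 (adjusted p = 0.0541). Without the 3 libraries of under 10000 genes, MXI1 (adjusted p = 0.0259), MYCN (0.00288), MAX (0.00641) and MYC (0.0474) passed there. At 54 h against the mean of 48 and 60 h, 8.35% of genes passed, 6.54% higher and 1.81% lower, and so did MXI1, at -2.46 (SE 0.48, limma adjusted p = 0.000417). That call was lost without A1 (adjusted p = 0.066). MYCN at 1.47 and MAX at 1.51 had adjusted p of 0.106 and 0.099 there, and both passed without the same 3 libraries (0.00133 and 0.00082). Of the called genes 56.7% were higher at 30 h and 78.3% at 54 h, shares that were 45.2% and 56.3% after quantile normalization and 46.6% and 50.5% after median-ratio scaling.

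Summed by role among the 10 members, the mean of MYC plus MYCN was above that of the repressors at 6, 30 and 54 h. It was below that of the repressors at each of the other multiples of 6 h. MYC plus MYCN came to 88.1 ± 6.97, 113 ± 23.1 and 174 ± 22.1 TPM at 6, 30 and 54 h (SD, n = 3 each). The 5 repressors MXD1, MXD3, MXD4, MXI1 and MNT together came to 73.6 ± 7.69, 90.1 ± 16.9 and 86.4 ± 13.6 TPM at the same times. At 48 h the sums were 75.7 TPM for MYC plus MYCN and 178 TPM for the repressors, and at 66 h they were 69.4 and 193 TPM. The sums leave out MYCL1, another MYC gene, and MGA, a MAX partner of a repressive complex, which are not among the members. MYCL1 was at 41.3 ± 10.2 TPM at 6, 30 and 54 h and 59.4 ± 18.2 TPM at the other multiples of 6 h, and MGA at 53.6 and 28.7 TPM. The order of the sums depends on which genes are counted, and sums with these genes were not computed.

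The log2 ratio of the sums was 0.53 ± 0.41 (SD, n = 9) at 6, 30 and 54 h and -0.80 ± 0.45 (SD, n = 26) at the other multiples of 6 h. It was above 0 in all 9 libraries of the first set and in 2 of the 26 others, 1 at 36 h and 1 at 60 h. At 4 h, which is no multiple of 6 h, it was 0.73 ± 1.13 (SD, n = 3). It is given as a description, without a test, because the members were chosen with these values known. RNA levels do not measure the proteins, whose turnover is a known point of control.

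**Figure D3:**
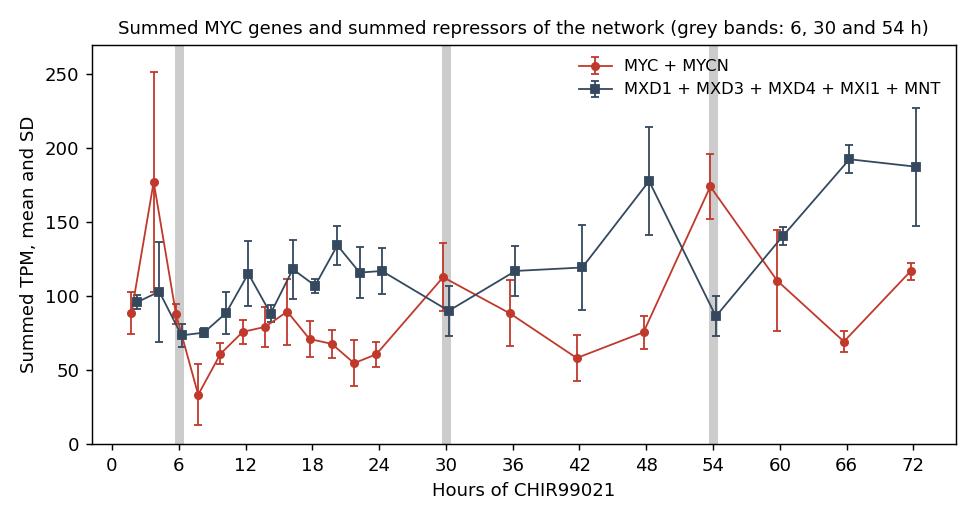
Summed TPM of MYC and MYCN (circles) and of the repressors MXD1, MXD3, MXD4, MXI1 and MNT (squares), mean and SD over the libraries of each time point, against hours of CHIR99021, with grey bands at 6, 30 and 54 h. The MYC sum lies above the repressor sum at each band, by the widest margin at 54 h, with 174 against 86.4 TPM.

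The makeup of each sum differed as well. MYCN was 72.6% ± 9.27 of the MYC sum at 6, 30 and 54 h and 46.2% ± 13.7 at the other multiples of 6 h (SD, n = 9 and 26). MXI1 was 16.2% ± 4.09 and 38.7% ± 10.4 of the repressor sum, MXD4 45.1% ± 6.63 and 30.8% ± 12.4, and MNT 18.3% ± 5.91 and 7.32% ± 2.35. From 12 to 24 h MXD4 made up 35.7% ± 7.01 and MXI1 30.3% ± 3.90 of the repressor sum (SD, n = 21), and from 60 to 72 h the shares were 21.1% ± 11.6 and 48.2% ± 8.62 (SD, n = 9). MXD4 thus had the larger mean share in the first of these windows and MXI1 in the second.

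Early and late exposure were compared next. Between 2 to 8 h and 54 to 72 h, with 12 libraries in each window, 3 members were higher late, MYC, MXI1 and MLXIP, and 1 was lower, MAX; 30.1% of all genes passed, 14.3% higher and 15.8% lower. The count of 4 of 10 is near that share, so nothing is read from it about the network as a whole. MYC was at 22.9 ± 9.004 TPM early and 51.7 ± 15.0 TPM late (SD, n = 12), a log2 difference of 1.203 (SE 0.19, limma adjusted p = 2.2e-06). MXI1 went from 18.8 ± 13.02 to 66.5 ± 37.6 TPM, a difference of 1.85 (SE 0.27, limma adjusted p = 2.86e-07). MLXIP went from 15.0 ± 3.06 to 31.9 ± 11.7 TPM, a difference of 0.98 (SE 0.15, limma adjusted p = 1.68e-06).

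MAX went from 69.7 ± 33.1 to 40.1 ± 24.0 TPM, a difference of -1.10 (SE 0.32, limma adjusted p = 0.00624), which was -0.57 (0.0184) without the 3 libraries of under 10000 genes, and -0.65 and not called without A2 (0.0656). MXD3 went from 12.8 ± 7.88 to 32.3 ± 19.9 TPM, a difference of 1.09 (SE 0.45, limma adjusted p = 0.059), and passed at 1.62 without those 3 libraries (1.56e-05). MYCN had a difference of 0.08 (SE 0.31) with an adjusted p of 0.875. The remaining members, MXD1, MXD4, MNT and MLX, did not pass.

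These windows hold 6 h and 54 h. Without those 2 times the differences were 2.46 for MXI1 (adjusted p = 6.56e-08), -1.50 for MAX (0.00267), 1.26 for MYC (3.04e-05), 0.80 for MLXIP (0.000933) and 1.46 for MXD3 (0.0336). Over the whole course, 36.8% of genes passed a test for change along a smooth curve, 15.4% ending higher and 21.4% lower. So did MYC (limma adjusted p = 0.00211), MAX (0.0116), MXI1 (0.000545), MNT (0.00956) and MLXIP (3.08e-09), a count that is likewise near the share of all genes. Leaving out a label ended this call for MYC (0.0711 without A1, 0.0744 without B1), MXI1 (0.0674 without A1), MNT (0.181 without A1) and MAX (0.182 without A2). MAX also lost it without the 3 libraries of under 10000 genes (0.242), and MXD3 gained it there (0.000253).

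Between its low times MXI1 had higher means at 48 h and from 60 to 72 h than from 12 to 42 h. It was at 34.6 ± 7.53 TPM from 12 to 24 h (SD, n = 21), 51.0 ± 26.7 TPM from 36 to 48 h (SD, n = 8) and 84.2 ± 23.0 TPM from 60 to 72 h (SD, n = 9). Within the middle window the mean was 40.7 TPM at 36 h and 37.6 TPM at 42 h, and the 48 h libraries were at 59.13 and 113.58 TPM. MAX was at 36.1 ± 12.7, 31.8 ± 11.4 and 28.5 ± 12.7 TPM in the same windows. The spread of MXI1 was widest at 48 h and 72 h, where the 72 h A2 library, one of those with under 10000 genes, was at 44.64 TPM and the other two were at 110.11 and 110.74 TPM.

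**Figure D4:**
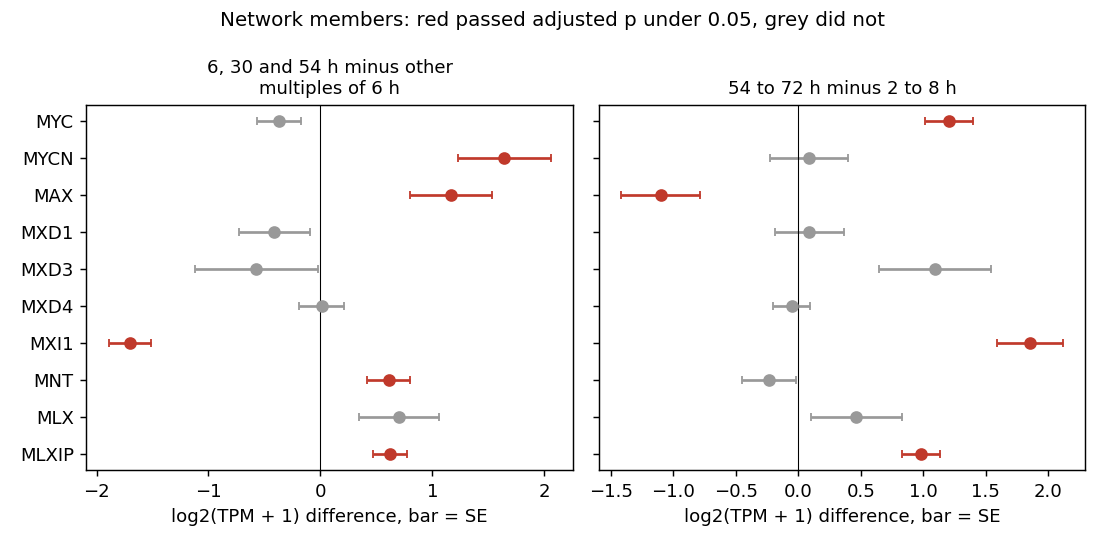
Log2(TPM + 1) difference of each member, with a bar of 1 SE, for 6, 30 and 54 h minus the other multiples of 6 h (left) and for 54 to 72 h minus 2 to 8 h (right), with red for an adjusted p under 0.05. MXI1 is lower on the left, at -1.70, and higher on the right, at 1.85, while MYCN passes in the left panel and MYC in the right.

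Other genes of the extended network and its cofactors were examined at 6, 30 and 54 h, where 8.6% of all genes were higher and 5.2% lower. Of MGA, MLXIPL and MYCL1, MGA, a MAX partner of a repressive complex, rose from 28.7 ± 8.82 to 53.6 ± 7.65 TPM, a difference of 0.89 (SE 0.21, limma adjusted p = 0.00242), and the other two did not pass. Of 14 activating cofactors, 2 were higher and none lower: WDR5, a chromatin adaptor that binds MYC, at 111 ± 22.8 TPM against 58.6 ± 16.9 TPM, and CCNT1, a subunit of the elongation factor P-TEFb, at 69.2 ± 10.7 TPM against 54.5 ± 10.4 TPM. All 14 had a difference above 0, with a median of 0.25 against 0.04 over all genes. The share of all genes with a difference above 0 is not given here, so nothing is read from the count of 14. Of 11 genes of the corepressor complex and related antagonists, SUDS3, a SIN3 subunit, was higher (0.41, adjusted p = 0.0274) and none was lower, with a median of 0.05. The counts of cofactors and of corepressor genes are near the shares over all genes. SIN3A itself was at 81.2 ± 11.7 and 77.2 ± 15.9 TPM.

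Of 12 genes that control the stability of MYC proteins, 1 was higher and 4 were lower at 6, 30 and 54 h, where 8.6% of all genes were higher and 5.2% lower. The log2 differences stand in parentheses. FBXW7, the ubiquitin ligase subunit that recognises phosphorylated MYC, was at 55.6 ± 19.3 TPM against 32.4 ± 9.07 TPM (0.92, limma adjusted p = 0.000132). USP28, a deubiquitinase that counteracts it, was at 20.8 ± 4.28 TPM against 49.0 ± 10.0 TPM, a difference of -1.21 (adjusted p = 2.72e-08), with the 9 libraries between 13.12 and 25.69 TPM and the other 26 between 30.22 and 64.81 TPM. Ranges failed to overlap for 1.04% of all genes tested. AURKA, a kinase that stabilises MYCN (-0.66), KIAA1524, the PP2A inhibitor also named CIP2A (-0.61), and the ligase HUWE1 (-0.43) were lower as well. GSK3A and GSK3B encode the targets of CHIR99021, and neither passed. GSK3A was at 57.3 ± 16.6 and 56.1 ± 18.5 TPM, and GSK3B at 61.0 ± 10.6 and 70.2 ± 14.1 TPM (limma adjusted p = 0.687 for GSK3B).

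Of 27 genes widely described as MYC targets, 10 were higher at 6, 30 and 54 h, 1 was lower and 16 did not pass, with a median of 0.40 against 0.04 over all genes. Among all genes 8.6% were higher and 5.2% lower. RRS1, a ribosome assembly factor, was at 104 ± 17.2 TPM against 16.0 ± 8.72 TPM (2.76, limma adjusted p = 2.37e-05). MAT2A, which makes S-adenosylmethionine, was at 642 ± 85.9 TPM against 117 ± 118 TPM (2.52, adjusted p = 6.76e-07), and NOP56, a nucleolar protein of ribosomal RNA processing, at 234 ± 26.6 TPM against 82.3 ± 29.1 TPM. TFRC, the transferrin receptor, was at 136 ± 27.1 TPM against 43.0 ± 12.9 TPM. These are the members of the list with the lowest p, together with LDHA, which went the other way.

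LDHA, a glycolytic enzyme counted among MYC targets and also among those of hypoxia, fell by 0.99 on the log2 scale, from 2063 ± 403 to 1073 ± 132 TPM. Several of the best known targets did not pass: NPM1 was at 4098 ± 313 and 4161 ± 776 TPM, ODC1 at 861 ± 145 and 677 ± 274 TPM, and NCL at 2326 ± 384 and 1704 ± 405 TPM (limma adjusted p = 0.0616). The list thus held genes with a difference of over 2 on the log2 scale beside genes with a difference near 0. Between 2 to 8 h and 54 to 72 h, where MYC was higher late, 5 of the 27 were higher and 6 lower, near the 14.3% and 15.8% of all genes. CCND2, a cyclin, was 1.40 higher, and MAT2A and RRS1 fell by 1.61 and 1.51 on the log2 scale.

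Of 6 genes listed as targets of MLX with MLXIP or MLXIPL, TXNIP was lower at 6, 30 and 54 h and 5 did not pass, where 5.2% of all genes were lower. TXNIP, an inhibitor of glucose uptake and the best known target of MLXIP, was at 161 ± 18.7 TPM against 331 ± 111 TPM (-0.81, limma adjusted p = 0.00282). ARRDC4, its paralog, was at 68.9 ± 33.9 and 54.0 ± 28.0 TPM (0.72, adjusted p = 0.138). Between the early and late windows 5 of the 6 were higher late (TXNIP, ARRDC4, PFKFB3, ACACA and FASN) and 1 lower (PKLR). Of all genes 14.3% were higher and 15.8% lower in that comparison. PKLR was near the floor, with a mean of 0.96 TPM and 5 of 12 libraries at 0 early, and all 12 at 0 late. MLXIPL was lower late, at 2.53 ± 2.31 TPM early and 0.47 ± 0.77 TPM late (-1.10, limma adjusted p = 0.0248), while MLXIP was higher. MLXIPL was near the floor too, at 0 in 2 of 12 early and 8 of 12 late libraries.

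The hypoxia response moved with MXI1, which is described elsewhere as a gene induced by hypoxia-inducible factors. Of 14 genes of that response, 12 were lower at 6, 30 and 54 h, none was higher and 2 did not pass, with a median of -0.93. Among all genes 8.6% were higher and 5.2% lower. BNIP3, a mitophagy receptor, was at 62.9 ± 11.7 TPM against 377 ± 87.3 TPM, a difference of -2.68. P4HA1, a collagen prolyl hydroxylase, was at 119 ± 58.8 TPM against 498 ± 131 TPM, and KDM3A, a histone demethylase, at 33.0 ± 8.55 TPM against 118 ± 25.8 TPM. The 14 genes summed to between 1681 and 2098 TPM in the 9 libraries and to between 2909 and 4804 TPM in the other 26, without overlap.

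Over the 20 time-point means the Pearson r with this sum was 0.89 for MXI1, 0.61 for MYC, -0.37 for MYCN and -0.77 for MAX on the log2 scale. Over the 17 means without 6, 30 and 54 h it was 0.87 for MXI1, 0.85 for MYC, -0.06 for MYCN and -0.64 for MAX. The points share libraries and culture age. Whether the hypoxia response had a part in the level of any member was not tested.

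**Figure D5:**
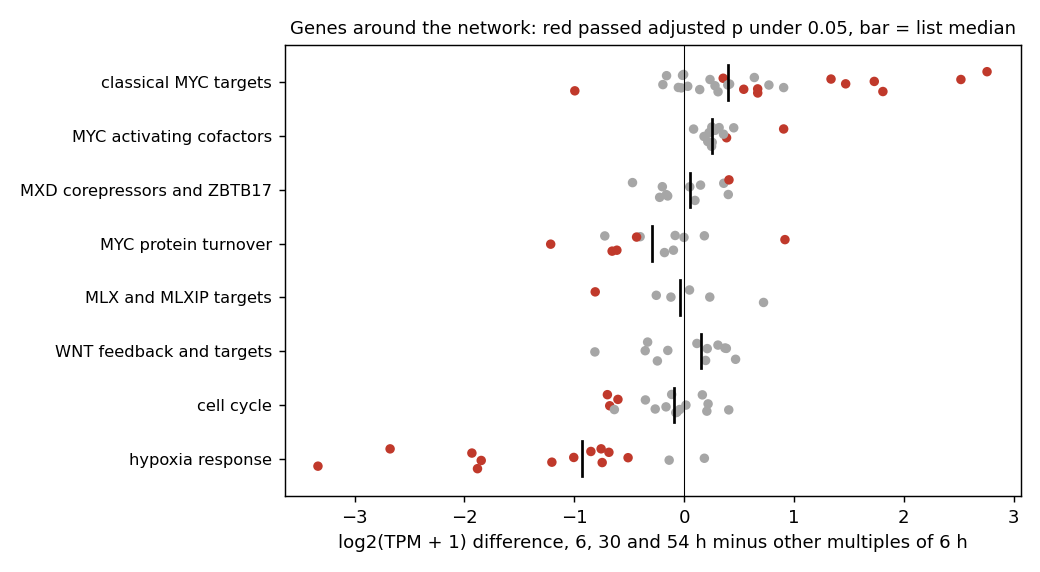
Log2(TPM + 1) difference at 6, 30 and 54 h minus the other multiples of 6 h for each gene (point) of 8 lists around the network, with red for an adjusted p under 0.05 and a black bar for the list median. The MYC targets spread from LDHA at -0.99 to RRS1 at 2.76 around a median of 0.40, and the hypoxia genes have a median of -0.93.

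Cell cycle genes and markers of cell types were examined beside the network. Of 16 cell cycle genes 3 were lower at 6, 30 and 54 h, among them TOP2A at -0.70, and of 12 WNT feedback genes and targets none passed by limma, with 3 at an unadjusted p under 0.05. Among all genes 8.6% were higher and 5.2% lower. Of 10 neural progenitor markers 1 was higher (NES, 0.62) and 3 were lower (SOX2 at -0.67, VIM at -0.40 and PAX6 at -0.30), and the sum of the 10 was 2971 to 3615 TPM against 2128 to 4001 TPM. Most of that sum was CDH2, with means of 1719 and 1447 TPM, and VIM, with 801 and 1057 TPM. SOX2 was at 58.4 and 124 TPM. Neuron markers summed to 278 to 426 TPM against 222 to 565 TPM, with 1 of 8 lower. Epithelial markers summed to 257 to 1413 TPM against 347 to 1168 TPM, with 1 of 8 lower, KRT19. At 6 h against 12 h, however, 5 of the 8 epithelial markers were higher and none lower, with a median of 1.25, and 6 of the 16 cell cycle genes were lower and none higher. Of all genes 0.699% were higher and 0.954% lower there. The part of these markers and cell cycle genes in the members' values at 6 h was not tested.

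Of the other cell types, endoderm markers summed to 5.54 to 141 TPM against 0 to 60.7 TPM with SOX17 at 0 throughout, and mesoderm and fibroblast markers to 61.7 to 136 TPM against 45.7 to 310 TPM with MSGN1 at 0. Neural crest markers summed to 44.8 to 96.2 TPM against 12.1 to 203 TPM, with SOX10 at 0 in the first set and FOXD3 in the second. By limma no member of these 3 lists passed, with 2 mesoderm and fibroblast markers at an unadjusted p under 0.05 and none of the other 2 lists. Pluripotency markers summed to 1089 to 1788 TPM against 888 to 1801 TPM, with 1 of 5 lower. Most of that sum was LIN28A, with means of 1131 and 1080 TPM, followed by DPPA4 at 194 and 266 TPM. POU5F1 was at 11.9 and 12.2 TPM, NANOG at 1.94 and 3.98 TPM and TDGF1 at 1.28 and 1.65 TPM. The ranges of each of these sums overlapped between the 2 sets, and the part of such cells in the members' values was not tested. In the early against late comparison all 8 epithelial and all 7 measured endoderm markers were lower late, 11 of 16 cell cycle genes were higher and 1 lower, and 7 of 8 neuron markers were higher. Of 14 hypoxia genes 9 were higher late and 1 lower, and of 10 neural progenitor markers 7 were higher and 2 lower. Over all genes 14.3% were higher late and 15.8% lower. The rise of MYC, MXI1 and MLXIP came with a change in all of these lists, whose part was not tested.

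The genes most like each of 4 members were ranked by Pearson r over the 20 time-point means among 13138 genes with a highest mean of at least 5 TPM. For MXI1 they were ENO2 (0.92), LRRC4B (0.92), ALDOA (0.92), MLLT3 (0.92) and TRANK1 (0.91). ENO2 and ALDOA are glycolytic enzymes, at 93.0 ± 12.1 TPM against 208 ± 50.6 TPM and 581 ± 121 TPM against 882 ± 212 TPM at 6, 30 and 54 h and the other multiples of 6 h. For MYCN they were ZNF232 (0.87), PUSL1 (0.83), STK35 (0.83), PPAN (0.83) and ZNF853 (0.82).

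For MYC the nearest were SHISA6 (0.82), DDB2 (0.81), FHOD3 (0.81), VASH1 (0.80) and GPRC5B (0.80), and for MXD3 they were C12orf32 (0.84), CBX1 (0.84), KIF22 (0.80), PKMYT1 (0.79) and GAP43 (0.79). DDB2, a DNA damage recognition gene, was at 10.95 ± 6.38 TPM from 2 to 8 h and 99.8 ± 39.4 TPM from 54 to 72 h. These values are the highest of many and carry no test.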

How the data were processed

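RNA-seq was made from 100 ng of total RNA per library with oligo-dT selection and 18 PCR cycles, read as single 51 bp reads, per the labels' protocols. The authors deposited TPM for 19084 gene symbols. CASAVA 1.8.2, Bowtie 0.12.8, RSEM 1.2.3 and hg19 were used, per the submitters' processing notes, and the name of a gene annotation was not given in the sources used here. TPM are not counts, so no interval or detection limit was computed. RSEM apportions reads shared by paralogs or overlapping genes, and such values are uncertain. Libraries correlated with each other by at most 0.98, and none was a copy of another.

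Values were analysed as log2(TPM + 1), which understates changes of low genes, in R 4.3.3 with limma 3.58.1, an intensity trend and Benjamini-Hochberg adjustment over the 15305 genes that reached 1 TPM in 3 or more libraries. A call is an adjusted p under 0.05. The comparison of 6, 30 and 54 h used 35 libraries, a natural spline of hours with 3 df and 30 residual df. Local and window contrasts used 20 time-point means over 59 libraries, and the course an F-test on a spline with 4 df. Groups came from the labels. Tests were tried on simulated data. Alternatives varied the pseudocount, filter, scaling, curve, units and replicate block, and left out labels, libraries or times. The members and lists were chosen with earlier results of these data known. The text names all members, up to 5 genes of each list by lowest p plus genes that did not pass or went the other way, and the 5 genes most like MYC, MYCN, MXI1 and MXD3. Python 3.11.15 with matplotlib 3.10.9 drew the figures.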

Additional observations from a re-analysis of the deposited data

How the results depend on the processing

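Over all contrasts, 710 values of members were recomputed, of which 657 kept their side of the threshold, 20 gained a call, 33 lost one and no called value changed sign. MXI1 at 6, 30 and 54 h was called in all 17 alternatives, MYCN in 12, MAX in 11, MLXIP in 11 and MNT in 9. The number of genes called at 6, 30 and 54 h was 2112, and it was 3537 without the 3 libraries of under 10000 genes, 539 with time-point means as units, 665 without 30 h and 765 without 54 h. With MYC, the direction at 6, 30 and 54 h rested on 30 h, its difference being 0.18 without it, not called in either case. Without the same 3 libraries 610 genes were called at 6 h, 1707 at 30 h and 2598 at 54 h, against 253, 688 and 1278. Leaving out 1 label gave 814 to 1650 genes at 6, 30 and 54 h, 41 to 147 at 6 h, 184 to 497 at 30 h, 215 to 1164 at 54 h, 2975 to 4247 for late against early and 3232 to 5317 for the course, the lowest each time without A1. At 54 h the median of all genes was 0.10, and scaling shifted it by -0.105 (quantile) or -0.118 (median ratio). For the course the quantile shift was 0.145. Deviations of libraries with the same label A1, A2 or B1 correlated between -0.181 and 0.158, with medians from 0.000684 to 0.00757. Of 59 libraries 31 correlated best with their own label, and the number to be met without pairing was not computed. These values do not settle whether the labels pair the samples. With the label as a replicate block, 2104, 259, 682, 1276, 4610 and 5616 genes were called at 6, 30 and 54 h together, at 6, 30 and 54 h each, late against early and over the course, and no call on a member changed. MXI1 at 30 h, not called as reported, was called with a pseudocount of 2 (adjusted p = 0.025), quantile normalization (0.0343) and median-ratio scaling (0.038). Where a value changed with a setting, the cause was not tested. Depth is unknown, and single libraries listed MYCN, MAX, MXD1, MXD3, MXI1 or MLX at 0, so small differences of low members are limited most.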
